A study of Mus musculus with 13 samples.

Results

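The genes described here encode the ErbB receptor family and its ligands: the receptors Egfr, Erbb2, Erbb3 and Erbb4, the neuregulins Nrg1 and Nrg2, and the EGF-type ligands Hbegf, Btc, Areg and Tgfa. They were chosen by name as a family, with earlier results of these data known, and are 10 of the 40787 genes in the deposited table. RNA was sequenced from sciatic nerves of adult C57BL/6 mice 5 d after a unilateral crush (5 days post crush [dpc]), taking the injured nerve distal to the crush and the uninjured contralateral nerve, each without its epineurium and each as 1 library. Control mice carried Rptor flox/flox without Cre and RaptorKO mice carried Rptor flox/flox with a tamoxifen-inducible CreERT2, and mice of both genotypes received tamoxifen at 2 months of age, 2 months before the crush. The 13 libraries were 3 control injured, 3 control contralateral, 3 RaptorKO injured and 4 RaptorKO contralateral nerves. Rptor encodes raptor, a defining subunit of the growth-regulating kinase complex mTORC1, and this CreERT2 recombines in Schwann cells (SCs), so other cells of the nerve keep the unrecombined gene. The samples are whole nerves, in which fewer cells of a type and less RNA per cell cannot be told apart.

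ErbB receptors are tyrosine kinases that signal as pairs. Erbb2 binds no known ligand and Erbb3 has little kinase activity of its own, so SCs use them together as the receptor for neuregulin 1 that axons present on their surface, a signal that sets SC survival, number and myelin thickness. Erbb4 is a complete neuregulin receptor, whereas Egfr is the receptor for amphiregulin (Areg), transforming growth factor alpha (Tgfa), betacellulin (Btc) and heparin-binding EGF-like growth factor (Hbegf), of which Btc and Hbegf also bind Erbb4. Axonal neuregulin is translated from RNA made in neuronal cell bodies outside the nerve, so it is not measured in nerve RNA, and counts per gene do not separate the Nrg1 isoforms.

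Of the 10 genes, 6 had a start site among the RefSeq promoter windows used here (Erbb4, Areg, Btc, Tgfa, Egfr and Erbb2). The 250 bases before the start are shown for the 3 of these genes whose RNA changed most with injury: Btc, which rose, and Erbb4 and Tgfa, which fell. They are printed 5′ to 3′ on the strand of the gene from RefSeq on GRCm38.p6, at chr5:91402995-91403244 (minus strand) for Btc, chr1:69108060-69108309 (minus strand) for Erbb4 and chr6:86194972-86195221 (plus strand) for Tgfa, with capitals marking a motif match.
Btc: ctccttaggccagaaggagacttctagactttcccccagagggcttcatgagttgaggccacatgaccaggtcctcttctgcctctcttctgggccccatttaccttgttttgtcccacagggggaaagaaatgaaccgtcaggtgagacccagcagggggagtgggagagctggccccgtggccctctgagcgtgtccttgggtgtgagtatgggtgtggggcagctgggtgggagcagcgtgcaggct
Erbb4: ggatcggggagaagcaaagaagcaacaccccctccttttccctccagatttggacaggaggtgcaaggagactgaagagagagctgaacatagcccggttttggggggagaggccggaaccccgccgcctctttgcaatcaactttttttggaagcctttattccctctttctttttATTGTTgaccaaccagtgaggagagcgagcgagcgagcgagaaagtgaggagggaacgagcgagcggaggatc
Tgfa: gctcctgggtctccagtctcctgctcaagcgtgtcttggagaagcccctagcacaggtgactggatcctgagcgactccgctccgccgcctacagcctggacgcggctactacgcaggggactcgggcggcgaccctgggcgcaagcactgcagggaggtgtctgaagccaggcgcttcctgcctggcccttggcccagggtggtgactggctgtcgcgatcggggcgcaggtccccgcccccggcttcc

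These windows differed in base composition. The Btc window was 59.6% G and C with 4 CpG dinucleotides, the Erbb4 window 54% with 12, and the Tgfa window 69.2% with 19, against medians of 52.4% and 6 over all 32841 windows. Both strands were searched for 4 motifs, none of which overlaps another in its letters: an AP-1 element (TGANTCA), a cAMP response element (TGACGTCA), a SOX element (AACAAT) and a TATA box (TATAAA). These were present in 6.75%, 1.55%, 9.43% and 12.4% of all windows. The Erbb4 window held the SOX letters once, on the opposite strand, and the Btc and Tgfa windows held none of the 4. The Areg window held the cAMP response element and the TATA box, and the Egfr and Erbb2 windows held no match. A match describes letters only, and occupancy was not measured.

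Libraries held 8200503 to 13581807 counts each. Rptor averaged 49.5 ± 4.97 CPM (a gene's count scaled to library size; SD, n = 3) in control contralateral and 24.5 ± 2.56 (n = 4) in RaptorKO contralateral nerves, a log2 fold change of -1, and fell by 0.68 on the log2 scale in injured nerves (edgeR quasi-likelihood test, adjusted p = 5e-04 and 0.0167). The injured Rptor call was lost without control injured 1 or 2 or RaptorKO injured 1 (adjusted p = 0.0511, 0.0882 and 0.0675). Reads of the deleted Rptor exon were not counted apart from those of its other exons. Both libraries of control 3 had Xist at 14462 and 15017 counts, against at most 17 in each of the other 11, and Y-linked genes at 20 and 10, against at least 1456. Myelinating SC markers were present in every contralateral library (summed level 71817 to 92049 CPM). Skeletal muscle markers summed to at most 26 CPM, mostly from Tnnt3 (group means 6.78 and 11.4 CPM in control and RaptorKO contralateral nerves), and adipocyte markers ranged from 1.3 to 286 CPM among RaptorKO contralateral and from 1.63 to 93 among control contralateral libraries.

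Injury was compared first, within each genotype. Levels are given in CPM, and a gene was called when its adjusted p was below 0.05 and its change exceeded 1.2-fold. In control nerves 7 of the 10 genes passed the filter of 50 counts in at least 2 libraries, of which 1 was called higher (Btc) and 4 lower (Erbb4, Tgfa, Hbegf and Egfr), against 32.4% of all 12430 tested genes called higher and 32.9% called lower. In RaptorKO nerves 8 passed, with 1 called higher (Btc) and 5 lower (the same 4 and Erbb2), against 30.5% and 28.5% of 12515 genes. Groups did not overlap for 5 of 7 and 5 of 8 members, against 70.9% and 60.6% of all tested genes. The median log2 fold change was -0.55 over the members tested in controls and -0.51 in RaptorKO, where all tested genes had medians of 0 and 0.03. Btc passed the filter only through its injured libraries and Erbb4 only through its contralateral ones, so their presence among tested genes depended on a difference between groups.

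**Figure D1:**
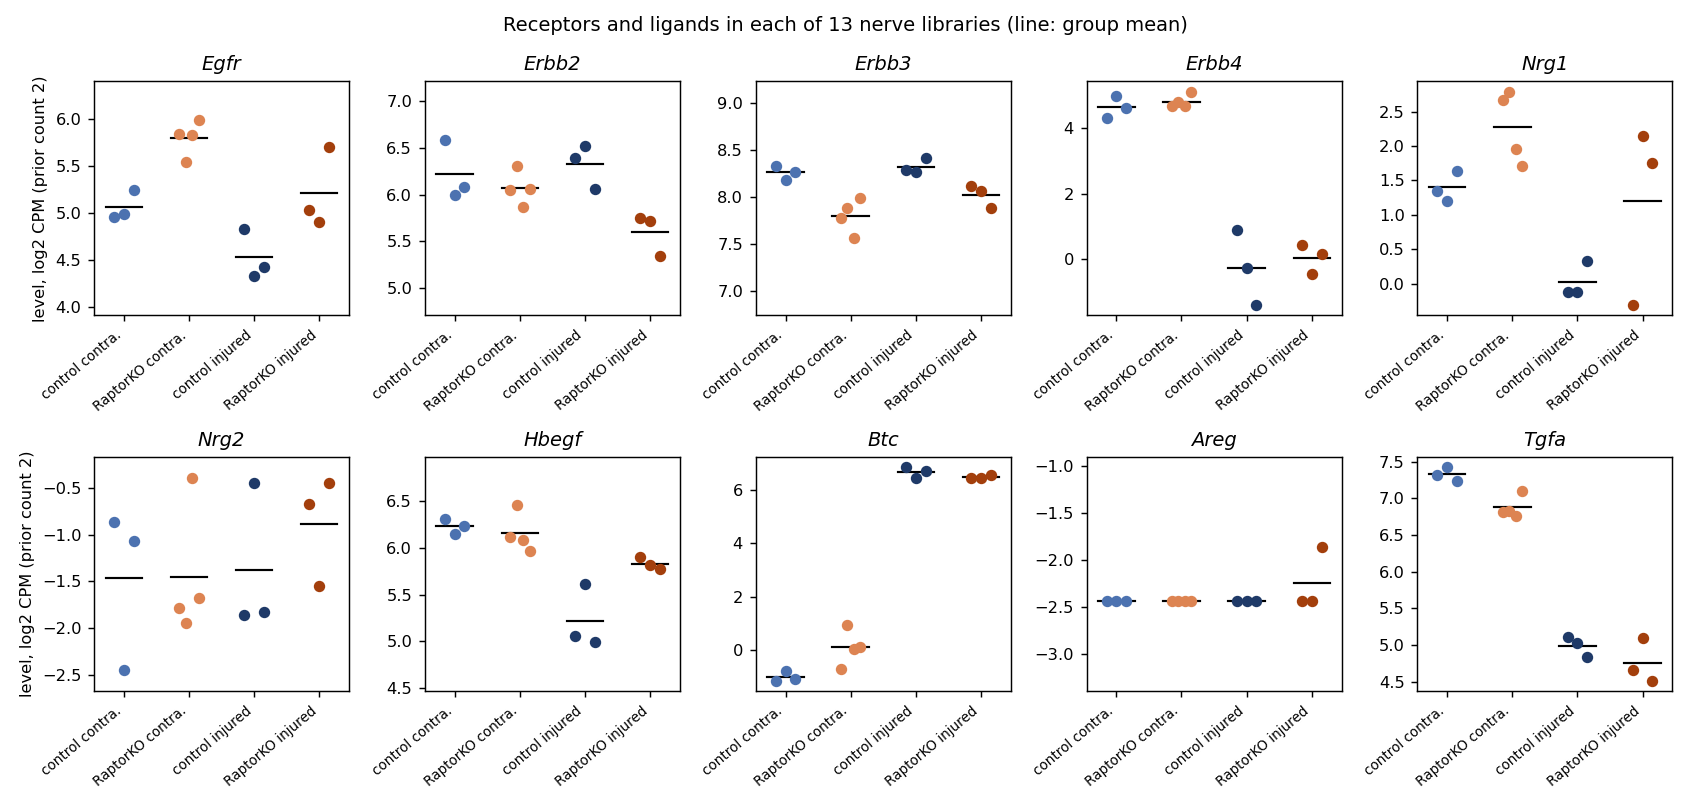
Level of each gene in log2 CPM with a prior count of 2, 1 panel per gene and 1 point per library, with a line at the group mean and a separate vertical scale in each panel. Btc in injured libraries stood above every contralateral library, Erbb4 and Tgfa in injured libraries stood below every contralateral one, and Nrg2 and Areg stayed near the value of 0 counts.

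Btc (chromosome 5, 91357261 to 91402994, minus strand, GRCm38) had the largest change of the 10. Its levels in control contralateral nerves were 0.273, 0.408 and 0.293 CPM, or 3, 5 and 3 counts, and in control injured nerves 113, 87.2 and 102 CPM. RaptorKO contralateral nerves had 0.427, 1.76, 0.858 and 0.902 CPM and RaptorKO injured nerves 87, 86.6 and 93.3 CPM. Every injured library was therefore far above every contralateral library in both genotypes. The ratio of summed counts per library size was 308 in controls (95% exact counting interval 172 to 617) and 84.1 in RaptorKO (62.3 to 116), which covers counting error only. The fitted log2 fold changes were 8.19 (SE 0.212, adjusted p = 6.26e-11) and 6.40 (SE 0.26, adjusted p = 1.92e-08, edgeR).

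Tgfa (chromosome 6, 86195223 to 86275719, plus strand), a ligand of Egfr, had the highest mean level per exon length of the ligands in contralateral nerves, although its range overlapped that of Hbegf in RaptorKO. Control contralateral nerves had 159, 171 and 150 CPM and control injured nerves 34.4, 32.4 and 28.4, a log2 fold change of -2.36 (SE 0.0992, adjusted p = 1.5e-09, edgeR). In RaptorKO it went from 112, 114, 108 and 137 to 25.1, 34.2 and 22.8 CPM, a log2 fold change of -2.11 (SE 0.156, adjusted p = 1.09e-06, edgeR). Injured and contralateral libraries did not overlap in either genotype. Exons of Tgfa overlap those of Gm43917 on the other strand, and whether counting used strand is not given in the sources used here.

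Hbegf (chromosome 18, 36504927 to 36515805, minus strand), also a ligand of Egfr and Erbb4, fell by less. Levels were 79.1, 70.9 and 74.8 CPM in control contralateral nerves and 33.3, 48.6 and 31.5 in control injured ones, a log2 fold change of -1.01 (SE 0.148, adjusted p = 7.95e-05, edgeR). RaptorKO nerves had 68.8, 87.1, 67.4 and 62.5 CPM contralaterally and 59.4, 56.2 and 54.5 after injury, a log2 fold change of -0.34 (SE 0.124, adjusted p = 0.0358, edgeR). Groups were separate in both genotypes, but the RaptorKO call was lost without any of 5 libraries: RaptorKO injured 1, 2 or 3 and RaptorKO contralateral 1 or 2 (adjusted p between 0.0529 and 0.0884, log2 fold change -0.23 without RaptorKO contralateral 2).

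Among the receptors, Erbb4 (chromosome 1, 68032186 to 69108059, minus strand) had the largest injury difference. Control contralateral nerves had 19.5, 31.2 and 24.4 CPM and control injured nerves 1.64, 0.642 and 0.196, the last from 2 counts. RaptorKO contralateral nerves had 25.2, 27.7, 25.4 and 34.3 CPM and RaptorKO injured nerves 1.16, 0.55 and 0.915. Every injured library was far below every contralateral library. The log2 fold changes were -4.91 (SE 0.42, adjusted p = 7.24e-07) and -5.01 (SE 0.259, adjusted p = 8.7e-08, edgeR).

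Egfr (chromosome 11, 16752203 to 16918158, plus strand) fell by 0.55 on the log2 scale in both genotypes. In controls it went from 30.9, 31.6 and 37.8 to 28.2, 20 and 21.3 CPM (SE 0.157, adjusted p = 0.00864, edgeR), and without both libraries of control 3 the log2 fold change was -0.39 and the call was lost (adjusted p = 0.0914). In RaptorKO it went from 57.4, 46.7, 56.5 and 63.3 to 32.5, 29.9 and 52.3 CPM (SE 0.192, adjusted p = 0.0293), with the groups overlapping through RaptorKO injured 3. That call was lost without RaptorKO injured 1 or 2 or RaptorKO contralateral 1 or 4 (adjusted p between 0.0582 and 0.114).

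Erbb3 (chromosome 10, 128567523 to 128589652, minus strand), the neuregulin-binding subunit of SCs, was not called with injury. It stood at 321, 289 and 309 CPM in control contralateral and 314, 307 and 340 in control injured nerves, a log2 fold change of 0.04 (95% interval -0.16 to 0.23, adjusted p = 0.745, edgeR). In RaptorKO, 218, 235, 189 and 254 CPM stood against 279, 267 and 235, a log2 fold change of 0.21 (interval -0.01 to 0.44, adjusted p = 0.132). Injured and contralateral libraries overlapped in both genotypes. Each RaptorKO injured library was above the contralateral library of its number, 279 against 218, 267 against 235 and 235 against 189 CPM, and with the replicate number as a block Erbb3 was called higher in RaptorKO (log2 fold change 0.28, adjusted p = 0.0285). The labels do not say whether a number marks 1 mouse.

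Erbb2 (chromosome 11, 98412470 to 98437716, plus strand), its kinase partner, showed 95.6, 63.6 and 67.5 CPM in control contralateral and 83.8, 91.7 and 66.4 in control injured nerves, and the groups overlapped (log2 fold change 0.07, SE 0.157, adjusted p = 0.715, edgeR). In RaptorKO it went from 66, 78.5, 58.2 and 66.7 to 53.8, 52.5 and 40.4 CPM without overlap, a log2 fold change of -0.47 (SE 0.137, adjusted p = 0.0134). Exons of Erbb2 overlap those of Mien1 on the other strand.

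Nrg1 (chromosome 8, 31814551 to 32884029, minus strand) was scarce. Control contralateral nerves had 2.37, 2.12 and 2.93 CPM and control injured nerves 0.731, 0.734 and 1.08, which are 26, 26 and 30 counts against 8, 8 and 11. Every control injured library was below every control contralateral one, but Nrg1 did not pass the count filter there, and an exact permutation test gave p = 0.1 (two-sided, n = 3 and 3), the smallest this design allows. Under filterByExpr, edgeR's own rule for low counts, it was tested and called (log2 fold change -1.55, adjusted p = 0.0124). In RaptorKO it was tested, with 6.19, 6.72, 3.72 and 3.09 CPM contralaterally and 0.622, 4.24 and 3.2 after injury (log2 fold change -0.88, SE 0.544, adjusted p = 0.187). RaptorKO injured 1, at 7.01 counts, stood far below the other two, and the log2 fold change was -0.42 without it (adjusted p = 0.439), -1.38 without RaptorKO injured 2 (adjusted p = 0.0851) and between these without any other library.

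Nrg2 (chromosome 18, 36017652 to 36197380, minus strand) had 0 to 6 counts in every library, and Areg (chromosome 5, 91139599 to 91148432, plus strand) had 1 count over all 13 libraries, in RaptorKO injured 3. No fold change is given for them.

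**Figure D2:**
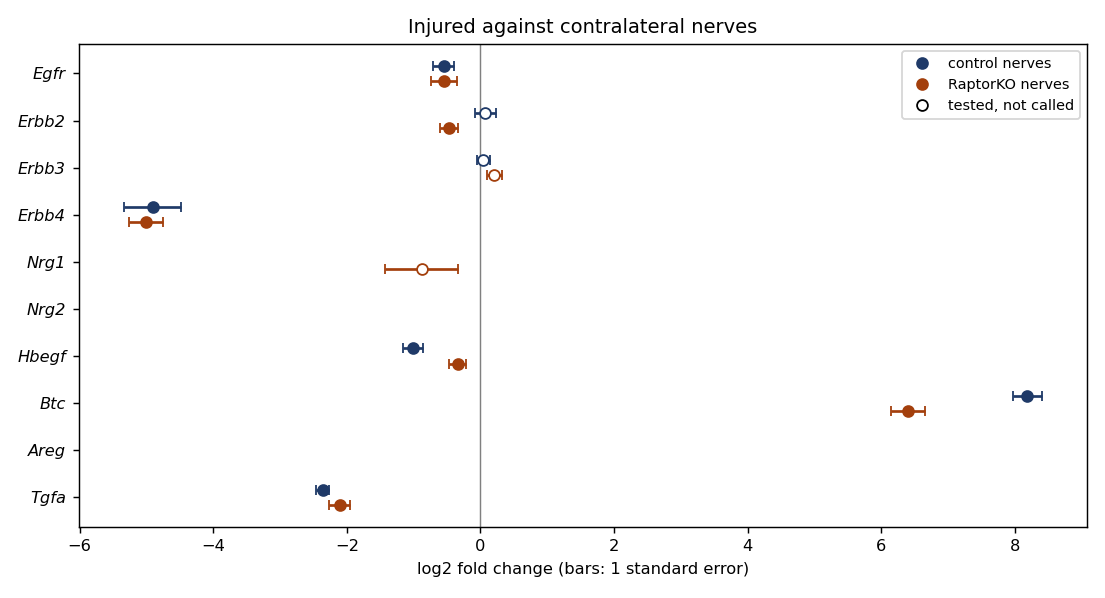
Log2 fold change of injured against contralateral nerves with 1 standard error, for control and RaptorKO nerves, over the genes that passed the count filter. Filled points passed the threshold, open points did not, and Nrg2 and Areg have none. Btc lay at 8.19 and 6.40, Erbb4 near -5 and Tgfa beyond -2, while Erbb3 lay close to 0 in both genotypes.

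The cell makeup of the nerve also moved with injury. The myelinating SC markers fell, 6 of 6 in both genotypes, from a summed 82922 to 92049 CPM to 1779 to 2424 in controls and from 71817 to 88286 to 1584 to 2104 in RaptorKO. The macrophage markers rose, 7 of 7, to a summed 602 to 1043 CPM in controls and 502 to 1200 in RaptorKO, from at most 162 in any contralateral library, and the perineurial markers fell, 6 of 6 tested. Of the endothelial markers, 4 of 6 fell in controls, and 2 fell and 2 rose in RaptorKO. Pericyte and smooth muscle markers fell in controls, 4 of 5 tested, and in RaptorKO 1 rose and 1 fell. Of 9 endoneurial fibroblast markers, 3 rose and 3 fell in each genotype. Markers of repair SCs rose, 5 of 5 tested in both genotypes, from a summed 49.7 to 67.8 CPM to 508 to 803. Mki67, a marker of proliferating cells, went from 4.77 to 718 CPM in controls and from 14.6 to 401 in RaptorKO. Between contralateral nerves only 2 repair and 5 macrophage markers passed the count filter, and between injured nerves 5 perineurial ones. The other tested markers of these lists entered through the side where they were high, so the filter in part set their direction. The part of cell makeup in the changes of Btc, Tgfa, Erbb4, Hbegf and Egfr was not tested.

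RaptorKO was then compared with control within each side. These comparisons share their groups with the injury comparisons, so they are not independent of them. In contralateral nerves 7 of the 10 genes were tested, of which 1 was called higher (Egfr) and 2 lower (Erbb3 and Tgfa), against 4.49% of 11878 genes called higher and 5.68% lower, and groups did not overlap for 4 of 7, against 23.6% of all genes. In injured nerves 6 were tested, of which 1 was called higher (Hbegf) and 1 lower (Erbb2), against 4.09% and 4.44% of 12040 genes, and 4 of 6 did not overlap, against 26.3%. The median log2 fold changes of the tested members were -0.05 and -0.18, beside 0.01 and 0 over all genes.

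Egfr was higher in RaptorKO contralateral nerves: all 4, at 46.7 to 63.3 CPM, lay above the 3 control nerves at 30.9 to 37.8. The log2 fold change was 0.76 (SE 0.126, adjusted p = 0.00414, edgeR). In injured nerves RaptorKO had 32.5, 29.9 and 52.3 CPM and control 28.2, 20 and 21.3, again without overlap, with a log2 fold change of 0.73 that missed the threshold (SE 0.214, adjusted p = 0.0585). It was called in 5 of 15 alternatives, among them DESeq2 and the edgeR exact test (adjusted p = 0.0121 and 0.0179), and over all 15 the adjusted p ran from 0.000693 to 0.199. With a library left out the log2 fold change ran from 0.45, without RaptorKO injured 3 (adjusted p = 0.146), to 0.89, and the call was made only without RaptorKO injured 2 (0.88, adjusted p = 0.0182). Some markers of endoneurial fibroblasts were also higher in RaptorKO. In both comparisons 4 of 8 tested markers of the list were called higher and none lower. The summed level of the list was 7605 to 10515 CPM in RaptorKO against 4769 to 5646 in control contralateral nerves. In injured nerves it was 6511 to 10710 against 4671 to 7075, which overlapped. Pdgfra, a growth factor receptor of these cells on the list, averaged 242 CPM in RaptorKO contralateral and 136 in control contralateral nerves. Sfrp4, also on the list, averaged less in RaptorKO injured than in control injured nerves, 14.7 against 27.2 CPM. The part of fibroblast number in the Egfr difference was not tested.

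Erbb3 was lower in RaptorKO contralateral nerves, where 189 to 254 CPM lay below the control range of 289 to 321 (log2 fold change -0.43, SE 0.104, adjusted p = 0.026, edgeR). The call was lost without control contralateral 1, 2 or 3 or RaptorKO contralateral 1, at adjusted p between 0.0666 and 0.104 and log2 fold changes between -0.40 and -0.47. In injured nerves the RaptorKO libraries, at 235 to 279 CPM, again lay below the controls at 307 to 340, but the difference was not called (log2 fold change -0.28, SE 0.113, adjusted p = 0.163). Markers of the SC lineage were lower as well, 3 of 7 in contralateral and 4 of 7 in injured nerves, with 1 higher in contralateral nerves, and their summed level was 1893 to 2585 CPM in RaptorKO against 3713 to 3895 in control contralateral nerves and 3543 to 4285 against 5022 to 5537 in injured ones. Their part in the Erbb3 difference was not tested.

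Erbb2 showed the lower RaptorKO level in injured nerves. Its RaptorKO levels of 53.8, 52.5 and 40.4 CPM all lay below the control levels of 83.8, 91.7 and 66.4 (log2 fold change -0.70, SE 0.149, adjusted p = 0.0148, edgeR), and the call was lost without control injured 2 (log2 fold change -0.60, adjusted p = 0.0749). In these nerves 4 of the 7 SC lineage markers were called lower and 0 higher. Sox10, a marker on that list, was not called (log2 fold change -0.30, adjusted p = 0.301, edgeR). Relative to Sox10, an SC lineage transcription factor, the log2 ratio of Erbb2 differed by -0.39 in RaptorKO injured nerves (exact permutation p = 0.1, two-sided, n = 3 and 3, the smallest possible), and the difference was 0.02 relative to 3 SC lineage genes (exact permutation p = 0.9). In contralateral nerves the groups overlapped (log2 fold change -0.14, interval -0.44 to 0.15, adjusted p = 0.614) and the sign turned without control contralateral 1 (0.06). Erbb4 did not differ beyond its spread in contralateral nerves (log2 fold change 0.19, SE 0.176, adjusted p = 0.569), and in injured nerves it was too scarce to be tested.

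Among the ligands, Tgfa was lower in RaptorKO contralateral nerves, 108 to 137 CPM against 150 to 171 (log2 fold change -0.42, SE 0.0976, adjusted p = 0.0223, edgeR). The call was lost without control contralateral 1 or 2 or RaptorKO contralateral 1 (adjusted p = 0.0771, 0.115 and 0.0637). In injured nerves its groups overlapped (log2 fold change -0.20, SE 0.171, adjusted p = 0.591).

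Hbegf was higher in RaptorKO injured nerves, with 54.5 to 59.4 CPM against 31.5 to 48.6 (log2 fold change 0.60, SE 0.16, adjusted p = 0.0404, edgeR). This call was lost without control injured 1 or 3 or RaptorKO injured 1 or 3 (adjusted p between 0.0566 and 0.147). In contralateral nerves its log2 fold change was -0.05 (SE 0.117, adjusted p = 0.854). Endothelial markers were higher in the same RaptorKO injured nerves, 6 of 6 called, with a summed level of 406 to 643 CPM against 227 to 339, and pericyte and smooth muscle markers, 4 of 5 tested, with 747 to 1057 against 398 to 498. Mast cell markers, 4 of 5 tested, were higher too (104 to 195 against 8.44 to 52.3 CPM), as were 4 of the 8 tested fibroblast markers given for Egfr. The part of these cells in the Hbegf difference was not tested.

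The injured groups of both genotypes overlapped in Btc (log2 fold change -0.17, interval -0.39 to 0.06, adjusted p = 0.461, edgeR). In contralateral nerves it was too scarce to be tested: 43 counts over 4 RaptorKO libraries stood against 11 over 3 controls, a ratio of 3.21 per library size (95% exact counting interval 1.63 to 6.91), with every RaptorKO library above every control library. RaptorKO contralateral 2 alone held 23 of the 43. Of the 2 alternatives that tested it, a single fit over all 13 libraries called it (log2 fold change 1.63, adjusted p = 0.031) and the fit with no count filter did not (1.59, adjusted p = 0.362).

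Nrg1 passed the filter in contralateral nerves only through RaptorKO libraries. It stood at 3.09 to 6.72 CPM in RaptorKO against 2.12 to 2.93 in control contralateral nerves, without overlap, and was not called (log2 fold change 1.03, SE 0.356, adjusted p = 0.0991, edgeR), except without RaptorKO contralateral 4 (1.18, adjusted p = 0.0452). In injured nerves it was not tested: RaptorKO had 7.01, 54 and 35 counts and control 8, 8 and 11, a ratio of 3.27 per library size (95% exact interval 2.11 to 5.21, for counting error only). RaptorKO injured 1 lay below every control, and over libraries the exact permutation test gave p = 0.4 (two-sided, n = 3 and 3).

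**Figure D3:**
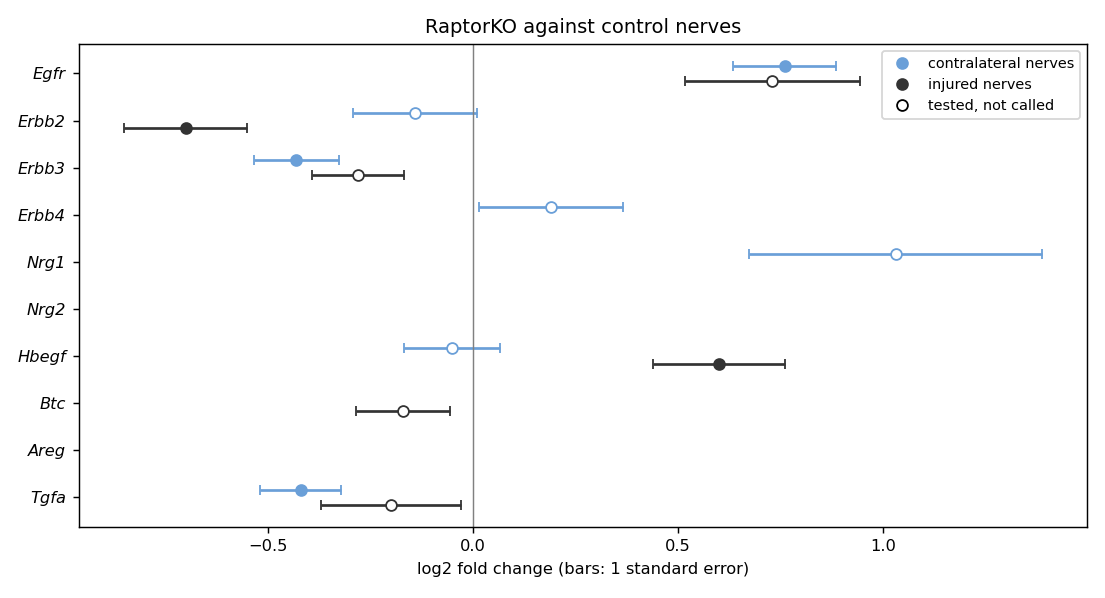
Log2 fold change of RaptorKO against control with 1 standard error, for contralateral and injured nerves, over the genes that passed the count filter. Filled points passed the threshold and open points did not. Egfr lay near 0.7 in both sides, Erbb3 and Tgfa were called lower in contralateral nerves only, and Erbb2 and Hbegf were called in injured nerves only. A call in one side and not the other is no test of their difference.

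Whether injury acted differently in RaptorKO was asked by an interaction term over all 13 libraries. None of the 8 tested members was called in edgeR, against 1.07% of 12851 genes called higher and 1.41% lower, although 3 had an unadjusted p below 0.05. These were Btc, Hbegf and Erbb2. For Btc the injury effect in RaptorKO minus that in controls was -1.82 on the log2 scale (SE 0.483, adjusted p = 0.0601), and 18 of 21 alternatives did not call it, at adjusted p up to 0.202. It was called by DESeq2 (adjusted p = 0.0144), with no count filter (adjusted p = 0.015) and without RaptorKO contralateral 1 (-2.05, adjusted p = 0.0238), and the value was -1.30 without RaptorKO contralateral 2 (adjusted p = 0.178). Btc entered this fit only through its injured libraries, whose levels overlapped between genotypes (log2 fold change -0.17, adjusted p = 0.461, edgeR). The value rests largely on contralateral counts of 3 to 5 in control and 4 to 23 in RaptorKO libraries. For Hbegf the interaction was 0.65 (SE 0.209, adjusted p = 0.135), and was called without control injured 2 (0.87, adjusted p = 0.0307). Erbb2 gave -0.56 (SE 0.232, adjusted p = 0.276). For Egfr the interaction was -0.02 with an interval of -0.55 to 0.51, for Tgfa 0.23 with an interval of -0.14 to 0.60, for Erbb3 0.15 with an interval of -0.14 to 0.45, for Erbb4 -0.12 with an interval of -1.28 to 1.03 and for Nrg1 0.66 with an interval of -0.84 to 2.16.

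Levels can be compared between genes only per length. The length used was the union of all annotated exons of a gene, which can exceed that of its expressed transcripts. The order and shares below therefore depend on the annotation. Levels are given as CPM per kb of this exon length. On that scale Erbb3 was the highest of the 10 in every group, at 50.9 ± 2.69 (SD, n = 3) in control contralateral, 53.2 ± 2.87 in control injured, 37.2 ± 4.59 (n = 4) in RaptorKO contralateral and 43.2 ± 3.77 in RaptorKO injured nerves. In control contralateral nerves it was followed by Tgfa at 24.6 ± 1.60, Hbegf at 15.5 ± 0.851 and Erbb2 at 14.5 ± 3.35, whose ranges overlapped, then Egfr at 2.95 ± 0.337, Erbb4 at 2.02 ± 0.474 and Nrg1 at 0.239 ± 0.04. Btc and Nrg2, whose ranges overlapped, lay below 0.1, and Areg at 0. In control injured nerves Btc came directly after Erbb3, at 22.4 ± 2.91, above Erbb2, Hbegf, Tgfa and Egfr in that order with no overlap between neighbours, and Nrg1, Nrg2 and Erbb4 overlapped at the bottom. In RaptorKO injured nerves Hbegf, at 11.7 ± 0.519, stood above Erbb2, at 9.38 ± 1.41.

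Summed per length, the receptors came to 70.4 ± 5.26 in control contralateral and 70.8 ± 0.313 in control injured nerves, and to 57.3 ± 6.00 and 56.1 ± 4.16 in RaptorKO. Erbb3 held 72.4% ± 1.94 of that sum in control contralateral and 75.2% ± 3.74 in control injured nerves, and 64.8% ± 1.37 and 77.1% ± 1.08 in RaptorKO. The ligands summed to 40.5 ± 1.31, 35.2 ± 1.93, 33.7 ± 2.38 and 36.0 ± 0.458 in the same order of groups, with a different leading gene by side. Tgfa held 60.8% ± 2.56 of the ligand sum in control contralateral nerves and 13.9% ± 0.772 after injury, whereas Btc went from 0.177% ± 0.0375 to 63.4% ± 6.59. In RaptorKO, Tgfa went from 53.9% ± 5.40 to 11.7% ± 2.45 and Btc from 0.635% ± 0.318 to 54.6% ± 2.49. The ligand sum was lower in control injured than control contralateral nerves, 33.7 to 37.4 against 39 to 41.3 without overlap, and in RaptorKO the ranges overlapped, 35.6 to 36.5 against 31.3 to 36.6. RaptorKO contralateral nerves lay wholly below control contralateral ones.

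**Figure D4:**
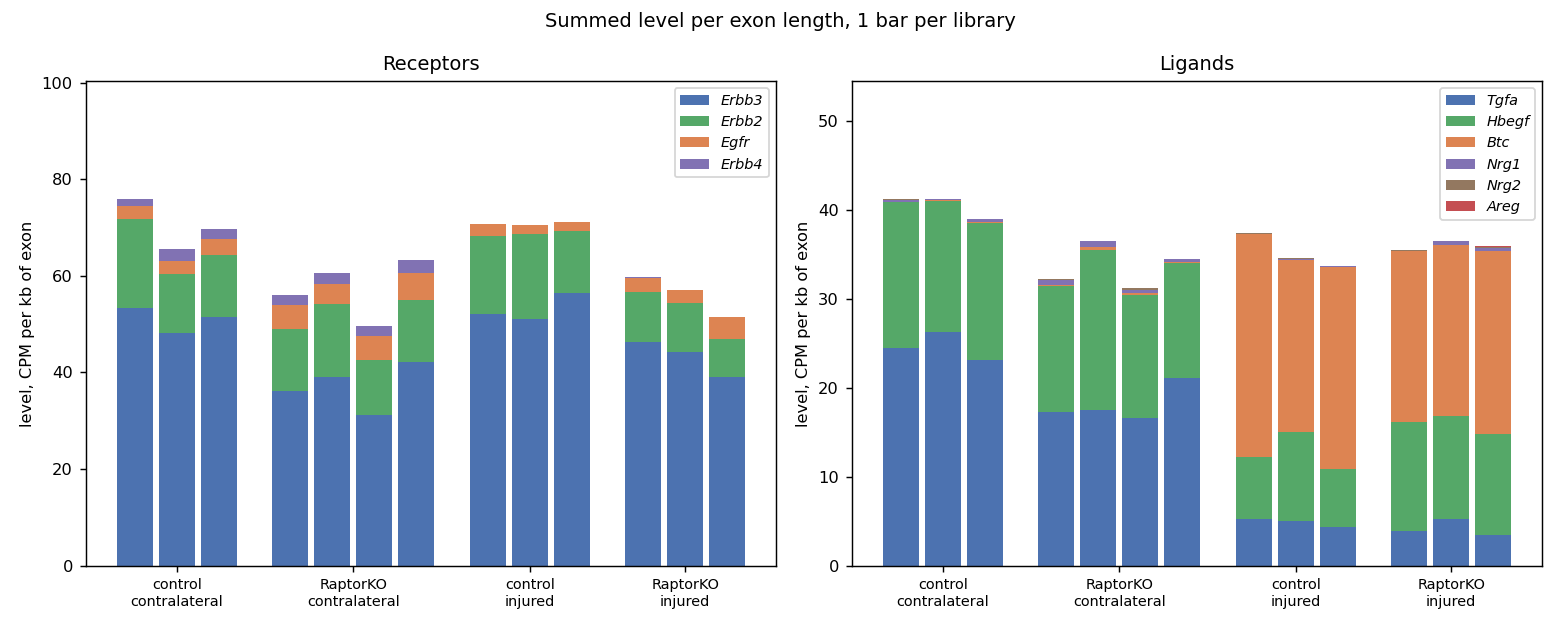
Stacked level per exon length in CPM per kb, 1 bar per library, for the receptors and the ligands, grouped by genotype and side. Erbb3 formed most of every receptor bar, and the ligand bars passed from mostly Tgfa and Hbegf in contralateral to mostly Btc in injured nerves.

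The SC receptor genes were also set against Sox10, a transcription factor of the whole SC lineage, as log2 ratios per library. Sox10 itself fell with injury, by 0.60 on the log2 scale in controls and 0.62 in RaptorKO (edgeR, adjusted p = 0.000442 and 0.00333). Relative to Sox10, Erbb3 was 0.64 higher in control injured than contralateral nerves (exact permutation p = 0.1, two-sided, n = 3 and 3, the smallest possible) and 0.86 higher in RaptorKO (exact permutation p = 0.0286, n = 3 and 4, the smallest possible). Erbb2 relative to Sox10 was 0.68 higher in controls (exact p = 0.1) and 0.17 higher in RaptorKO (exact p = 0.143), the latter turning to -0.07 relative to 3 SC lineage genes (exact p = 0.6). Between genotypes in contralateral nerves, Erbb3 relative to Sox10 was -0.19 (exact p = 0.0286), but 0.39 (exact p = 0.0286) when the mean of 3 SC lineage genes took the place of Sox10, so its direction depended on the denominator. With 1 library left out an exact test of this size cannot go below 0.0667. Adjusted by Benjamini-Hochberg over the 12 ratios computed (Erbb2, Erbb3 and Nrg1 in 4 comparisons), the exact permutation p of 0.0286 became 0.171. The smallest exact p possible was 0.1 with n = 3 and 3 and 0.0286 with n = 3 and 4. Even with every ratio at its smallest p, none could have passed after adjustment, so this outcome does not decide whether any ratio differed.

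The lists of other pathway genes held 57 genes, of which 50 were tested in the injury comparisons. The 5 other ligands (Nrg3, Nrg4, Egf, Ereg and Epgn) averaged at most 1.46 CPM in any group and were not tested. The ERK feedback and target genes were the list with most members higher after injury: 9 of 12 in controls and 10 of 12 in RaptorKO, none lower. Of all tested genes 32.4% and 30.5% were called higher. The median log2 fold change of the list was 1.01 and 1.08, beside 0 and 0.03 over all genes. ERK activity was not measured in these RNA data. Examples were Dusp5, a nuclear ERK phosphatase, at 4.52 in controls (SE 0.335, adjusted p = 1.97e-07, edgeR), rising from 0.727 to 17.6 CPM, and 3.96 in RaptorKO (SE 0.237, adjusted p = 2.33e-07), a gene that passed the count filter only through its injured libraries, and Spred1, an inhibitor of Ras signalling, at 1.13 in controls (SE 0.0855, adjusted p = 2.42e-07). In RaptorKO Dusp4, another such phosphatase, rose by 2.68 (SE 0.164, adjusted p = 2.74e-07).

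Of the 8 genes that act in shedding ligands from the membrane, 4 rose (Adam17, Adam19, Rhbdf1 and Nrdc) and 4 fell (Adam10, Bace1, Bace2 and Rhbdf2) in controls. In RaptorKO 3 of each (all but Rhbdf1 and Rhbdf2) changed the same way. Of all tested genes 32.4% rose and 32.9% fell in controls, and 30.5% and 28.5% in RaptorKO. Both Adam10, a sheddase of Btc and other ligands, and Bace2, a protease, had log2 fold changes of -1.59 and -1.47 in controls and -1.53 and -1.51 in RaptorKO (edgeR, adjusted p = 1.01e-07, 1.17e-07, 4.76e-07 and 4.86e-06). Of the 20 tested adaptors and kinases, 7 rose and 8 fell in controls, and 6 rose and 6 fell in RaptorKO, shares near those of all tested genes (32.4% and 32.9% in controls, 30.5% and 28.5% in RaptorKO). Pik3r1, the regulatory subunit of PI3K that Erbb3 recruits, had log2 fold changes of -2.09 and -1.95 (edgeR, adjusted p = 6.78e-09 and 5.06e-08). Of 10 receptor regulators, 1 rose (Cblb) and 3 fell (Errfi1, Cbl and Rnf41) in controls, beside 32.4% and 32.9% of all tested genes. In RaptorKO 2 rose (Cblb and Lrig1) and 2 fell (Errfi1 and Rnf41), beside 30.5% and 28.5%. Rnf41 was not called there without RaptorKO injured 1 (edgeR, adjusted p = 0.0635).

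Errfi1, also called Mig6, a feedback inhibitor that binds the kinase domains of the Egfr family, gave the only interaction call in these lists. That was 1 of 50 tested genes, near the share over all 12851 tested genes (1.07% called higher and 1.41% lower). Errfi1 fell with injury from 221 ± 11.2 to 49.7 ± 7.28 CPM in controls (log2 fold change -2.18, SE 0.106, adjusted p = 5.12e-09, edgeR) and from 185 ± 20.5 to 71.7 ± 6.87 in RaptorKO (log2 fold change -1.37, SE 0.117, adjusted p = 3.25e-06). The interaction was 0.79 (SE 0.164, adjusted p = 0.0219) and was lost without control injured 2, control contralateral 2, RaptorKO injured 1 or RaptorKO injured 3 (adjusted p between 0.0502 and 0.0637) and without both libraries of control 3 (0.69, adjusted p = 0.0922).

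Between genotypes, 3 pathway genes were called higher and 2 lower of 49 in contralateral nerves, against 4.49% and 5.68% of all tested genes, and 6 higher and 1 lower of 50 in injured nerves, against 4.09% and 4.44%. In contralateral nerves Adam19, a sheddase that cleaves Nrg1, was higher in RaptorKO at 42.8 ± 6.59 against 21.8 ± 4.46 CPM (log2 fold change 0.99, SE 0.17, adjusted p = 0.00518, edgeR), while Adam10 was lower (-0.37, SE 0.0774, adjusted p = 0.0149, lost without control contralateral 2 or 3 at 0.0809 and 0.0557). Pik3r1 was lower at -0.49 (SE 0.0737, adjusted p = 0.00245), and Spry2, a Ras pathway inhibitor, was higher at 0.52 (SE 0.144, adjusted p = 0.0464), a call lost in 6 of 7 fits with a library left out, all but that without RaptorKO contralateral 1. The other gene called higher was Rhbdf1 (0.32, SE 0.0845, adjusted p = 0.0401).

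In injured nerves the ERK feedback and target list had 3 of 12 higher and none lower, where 4.09% of all tested genes were called higher. These were Spry2 (0.68, SE 0.127, adjusted p = 0.00845, edgeR), Etv4 and Spry4. By Western blot, the paper detected no difference in Erk phosphorylation between genotypes in injured nerves at 5 dpc. The cause of these 3 higher levels was not tested. Etv4, an ETS factor induced by ERK, stood at 29.6 ± 1.29 against 16.4 ± 0.426 CPM (log2 fold change 0.86, SE 0.139, adjusted p = 0.00392, edgeR) and Spry4, a feedback inhibitor, at 27.4 ± 5.66 against 13 ± 1.76 (log2 fold change 1.09, SE 0.189, adjusted p = 0.00545). Plcg1, a phospholipase that binds active Egfr, was higher at 0.89 (SE 0.125, adjusted p = 0.00184), and Errfi1 at 0.54 (SE 0.129, adjusted p = 0.0246), which was lost without control injured 2 or 3 or RaptorKO injured 1 or 3 (adjusted p between 0.0593 and 0.099). Nrdc, which enhances ligand shedding, was called higher (0.38, adjusted p = 0.0404) and Pik3r1 lower (-0.37, adjusted p = 0.0456), calls lost in 6 and 5 of 6 fits with a library left out (Pik3r1 was kept only without RaptorKO injured 3).

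**Figure D5:**
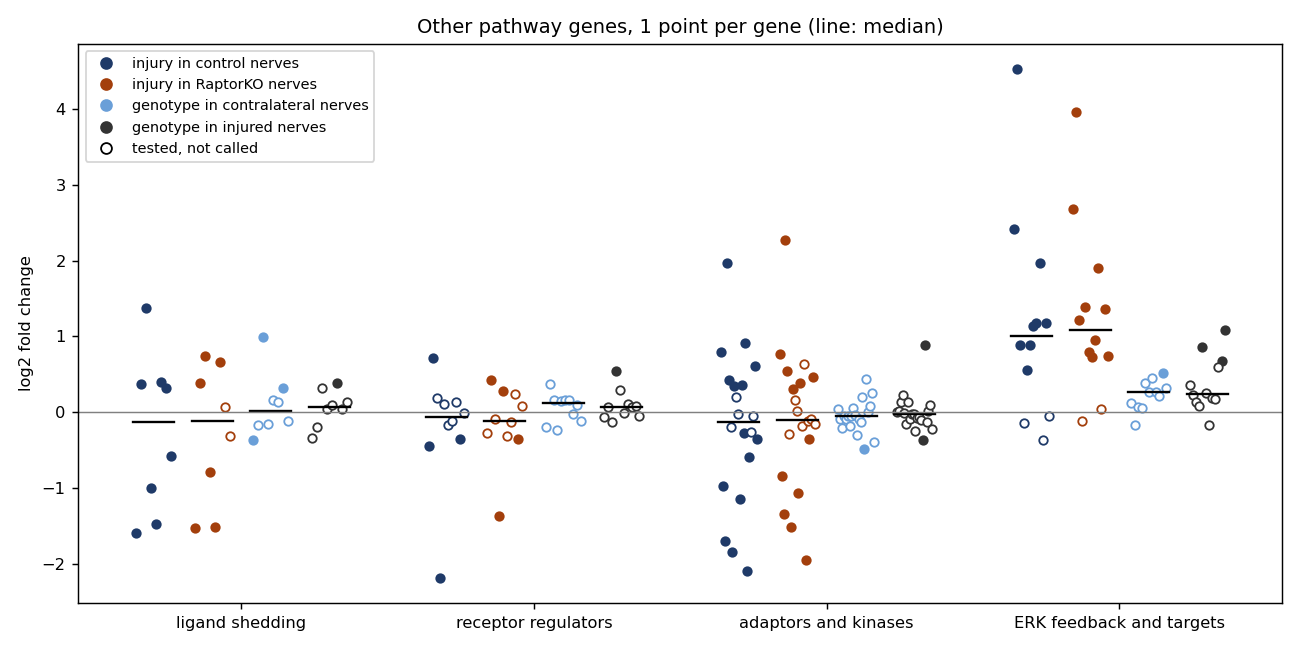
Log2 fold change of the tested genes in the 4 other pathway lists, 1 point per gene, for the 2 injury and the 2 genotype comparisons, with a line at the median. Filled points passed the threshold. The ERK feedback and target genes had injury medians of 1.01 and 1.08, and the medians of the other lists lay close to 0.

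The genes whose log2 CPM over the 13 libraries was most like each member give a description of the shared pattern. All 13 points share the injury contrast, so a gene that differs by side correlates with every other one that does. Closest to Btc were Nkd2, Ccnd1 and Mcm5 (Pearson r 0.996, 0.995 and 0.994), where Ccnd1 encodes a cyclin that drives cell cycle entry and Mcm5 a DNA replication helicase subunit. Closest to Tgfa were Fryl, Hepacam and Mras (0.997, 0.996 and 0.994), and to Erbb4 Sipa1l1, Foxo3 and Ccdc92 (0.995, 0.993 and 0.993). Egfr was nearest to Cped1, Gpc3 and Pdgfra (0.968, 0.950 and 0.946). Erbb3 was nearest to Lgals8, Lgi4 and Cdh19 (0.916, 0.910 and 0.910), the last of which is an SC cadherin that was also on the SC lineage list. Hbegf was nearest to Shroom1, Rgp1 and C1qtnf9 (0.954, 0.946 and 0.940), Erbb2 to Rnf10, Wsb2 and Arpc1a (0.926, 0.892 and 0.847) and Nrg1 to Arhgap28, Sobp and Wnk4 (0.916, 0.900 and 0.893).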

How the data were processed

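RNA-seq was made from 13 mouse sciatic nerves. The authors trimmed reads with Trimmomatic and estimated counts per gene with RSEM 1.2.22 on GRCm38; the deposited values are these expected counts, not normalized, and 24.9 to 27.9% of values above 0 per library were not whole. They were rounded for the tests. How reads of overlapping or similar genes were divided, and the strand setting of the counting, are not given in the sources used here.

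Genes with at least 50 counts in at least 2 libraries of a fit were tested with the edgeR 4.0.16 quasi-likelihood test (R 4.3.3, TMM factors), p-values being adjusted by Benjamini-Hochberg across every gene in the fit. The study's exact test was an alternative. CPM used TMM factors from the 12851 genes that passed over all libraries; log2 CPM had a prior count of 2. Standard errors are on the log2 scale. Groups came from the sample titles. Libraries of a group are nerves of separate mice, since the crush was unilateral and the paper counts these replicates as mice. The labels do not state whether an injured and a contralateral library came from the same mouse. The p-values measure the spread between libraries within groups and use no pairing of sides. Small-count ratios have exact 95% conditional binomial intervals. Genes named: all 10 members; in each pathway list and comparison at most the 2 called genes of smallest p (others in counts, and 1 item that is not reported here); the 3 genes most like each member. Where a count of calls was small, its other genes (Adam17, Adam19, Bace1, Rhbdf1, Rhbdf2, Nrdc, Cblb, Rnf41, Lrig1 and Spry2) were named after their values were seen. The members and lists were chosen with earlier results of these data known. Fits were tested on simulated counts. Alternatives were DESeq2 1.42.0, RLE factors, other count filters, the exact test, 1 fit over all libraries, a replicate block, other thresholds and each library left out. Figures were drawn with matplotlib.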

Additional observations from a re-analysis of the deposited data

Results flagged for a closer look

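Errfi1, the feedback inhibitor of Egfr family kinases, had an injury effect that differed between genotypes, by 0.79 on the log2 scale (RaptorKO minus control, adjusted p = 0.0219, edgeR interaction), since it fell with injury in both but by less in RaptorKO. This was 1 call among 50 tested pathway genes, where 1.07% of all 12851 tested genes were called higher and 1.41% lower. Among RaptorKO contralateral nerves, 1 library stood far from the other 3 in Nrg2 at 0.572 CPM, which is 6 counts against 1 in each of the others. It was the 1 such case among 12 sets of values, which were levels of members or ratios to Sox10. All 12 sets came from the same 4 RaptorKO contralateral libraries, so they are not independent. Chance gives about 1 in 20 for each set, so 1 case among 12 is not taken as beyond chance. The rule also assumes normally distributed values, which counts this small are not.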

How the results depend on the processing

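Of 1189 recomputed single values, 1058 kept their direction and side of the threshold, 92 lost it, 17 gained it and 22 changed sign. These values are not independent, and the settings that changed only a threshold reused the main fit. Among the losses were all 7 left-out settings of Erbb3 relative to Sox10 for injury in RaptorKO, and all 7 between contralateral nerves. Exact tests of that size cannot go below 0.0667, so these losses were fixed in advance. The 5 calls in control injury held in each fit with a library left out. At adjusted p below 0.01, 3 members were called with injury in RaptorKO, 1 between contralateral nerves and 0 between injured nerves. The interaction gave 1 call with DESeq2 and 1 with no count filter, both Btc, which had at most 23 counts in any contralateral library. With a library left out, members called ranged from 1 to 4 between contralateral nerves, 1 to 3 between injured nerves and 0 to 1 for the interaction.

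Sign changes were in values near 0 or ratios. With a library left out, the injury effect in controls ranged from -0.05 to 0.27 for Erbb2 and -0.01 to 0.09 for Erbb3, the contralateral genotype effect from -0.25 to 0.06 for Erbb2 and -0.16 to 0.01 for Hbegf, and the interaction from -0.32 to 0.13 for Egfr and -0.57 to 0.83 for Erbb4. With 3 SC lineage genes in place of Sox10, Erbb2 was -0.07 for injury in RaptorKO and 0.02 between injured nerves, and Erbb3 0.39 between contralateral nerves. With a library left out, Erbb3 relative to Sox10 ranged from -0.08 to 0.14 between injured nerves and Nrg1 from -0.90 to 0.34 for injury in RaptorKO. The cause was not tested.

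The labels do not say that equal replicate numbers mark 1 mouse, so the numbers were not taken as pairs. Deviations of same-numbered libraries correlated at 0.0674, 0.129 and 0.305 in the control injury comparison. The highest correlations with another number were 0.136, 0.0354 and -0.0878. In RaptorKO the same-numbered values were -0.0239, 0.211 and 0.168, against 0.094, -0.109 and 0.137. The same number was closer for 2 and 3 in both genotypes, but not for 1. Both libraries of control 3, and no others, had high Xist. The paper calls the contralateral nerves the corresponding ones, so 1 mouse per number is possible. With the replicate block the interaction of Egfr was 0.01 and Erbb3 was called higher with injury in RaptorKO (0.28, adjusted p = 0.0285). It changed no other call of a member. Genes under 50 counts, such as Nrg1 in injured nerves, are limited by depth.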
